A study of Mus musculus with 3 samples.

Results

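The Akt, mTOR and 4E-BP growth-control genes are 9 genes of the insulin and nutrient signalling route that sets protein synthesis: Akt1, Akt2, Mtor, Rptor, Rictor, Tsc1, Tsc2, Eif4ebp1 and Eif4ebp2. They were chosen by name, and every non-control probe whose accession belongs to one of them was taken, on all 3 arrays and in both colour channels. This gave 11 of 39429 probes and 9 of 32395 genes, where an accession without a symbol counts as a gene. The arrays compared lower-limb skeletal muscle of mFoxO1KO mice, which carry a skeletal muscle-specific, inducible deletion of FoxO1, with muscle of control mice. All were male C57BL/6 mice, and both genotypes ate an AIN93G diet with doxycycline at 0.625 g/kg between the ages of 8 and 14 weeks, so the inducer is common to the groups. The driver of the deletion is not given in the sources used here. RNA of 3 mFoxO1KO and 3 control samples, which the series calls biological replicates, was hybridised in pairs to 3 Agilent arrays of 2 colours.

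Akt kinases act downstream of the insulin and IGF-1 receptors. They phosphorylate FoxO factors, which then leave the nucleus, and they inhibit the TSC1-TSC2 complex, which restrains the small GTPase Rheb and through it the kinase mTOR. With Raptor (Rptor) mTOR forms complex 1, which releases the translation factor eIF4E from the 4E-BP repressors, and with Rictor it forms complex 2, which phosphorylates Akt itself. In skeletal muscle this route is known for fibre growth under load and insulin, and FoxO factors for the opposite programme of protein breakdown. In flies the 4E-BP gene is a direct FoxO target. Most of these proteins are switched by phosphorylation, which transcript arrays do not measure.

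On every array mFoxO1KO RNA was in the Cy5 channel and control RNA in the Cy3 channel, so a dye effect of a probe and the effect of genotype cannot be told apart. Each array had 44397 spots, of which 281 to 319 were flagged and 0 were saturated. Of the probes, 56.1% to 56.9% were well above background in the mFoxO1KO channel and 52.0% to 55.9% in the control channel. The log2 ratios of 17460 tested genes correlated between array pairs with r of 0.51 to 0.54, as a description across genes. Foxo1 had levels of 9.83, 10.16 and 9.96 in mFoxO1KO muscle, against 11.33, 12.58 and 12.23 in control muscle, on the log2 scale of normalised intensity. This was 23.9% of the control level (limma, adjusted p = 0.0278, and 0.106 without replicate 2), and a second Foxo1 probe gave 38.1% (limma over every probe, adjusted p = 0.0535). Whether either lies in the deleted part is not known here. All 9 skeletal muscle markers were above background, and their summed intensity ranged from 800855 to 810365 in mFoxO1KO samples and from 736786 to 792269 in control samples. Of 10 adipocyte markers 8 were above background, Lep and Ucp1 being the exceptions. The sum of all 10 ranged from 101725 to 206620 in mFoxO1KO samples and from 40415 to 93300 in control samples. The 8 adipocyte markers above background had median log2 ratios of 2.89, 0.22 and 1.84 on arrays 1, 2 and 3. Of 4 neutrophil markers 2 were above background (S100a8 and Ngp were not). The sum of all 4, which includes the signal of those 2, was 428 to 1099 in mFoxO1KO samples and 334 to 403 in control samples. The 4 Schwann cell markers had sums of 1087 to 1549 in mFoxO1KO samples and 981 to 1085 in control samples. The part of these markers in the results that follow was not tested. In whole muscle a different number of cells of a type and a different amount of RNA per cell cannot be told apart.

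The promoters of the growth-control genes were searched for letters that FoxO proteins are known to bind, since the deleted factor is a forkhead protein. RefSeq windows of 300 bases (250 before to 50 after the start site, GRCm38.p6) were found for Akt1, Akt2, Mtor, Rptor, Rictor, Tsc1, Tsc2 and Eif4ebp2, 12 windows for 8 genes. The forkhead core TGTTTAC, searched on both strands, occurred in 1 of the 12. The same letters occurred in 3.65% of all 32851 promoter windows in the table. The related letters TGTTTTG, also on both strands, occurred in 0 of the 12 windows and in 6.28% of all windows. The window with the match is shown because it is the single one among the growth-control genes that holds the core. It belongs to the farther upstream of the 2 Akt1 starts in the table, on the minus strand of chr12:112674835-112675134, and the capitals mark the core, whose first base has position -161 relative to the start site.
Akt1: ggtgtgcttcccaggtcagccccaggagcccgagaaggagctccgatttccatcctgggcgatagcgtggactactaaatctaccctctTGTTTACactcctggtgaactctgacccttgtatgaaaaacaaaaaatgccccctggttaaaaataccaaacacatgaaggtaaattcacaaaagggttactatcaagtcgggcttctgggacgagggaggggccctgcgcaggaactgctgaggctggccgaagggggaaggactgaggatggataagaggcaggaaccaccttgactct
A match of letters describes this window and says nothing of binding.

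None of the 9 growth-control genes differed between mFoxO1KO and control muscle past the threshold of an adjusted p of 0.05 (limma, Benjamini-Hochberg over 17460 genes). The background share of genes past that threshold was 2.75%. At an unadjusted p under 0.05 there was 1 of the 9, Tsc1, where the background share was 26.8%. The mean log2 ratio of mFoxO1KO over control was above 0 for 5 genes and below 0 for 4, and its median was 0.04, against 0.006 for all genes tested. Of all genes, 51.8% had a mean above 0. Akt1, Mtor and Eif4ebp2 were positive on all 3 arrays, Tsc1 was negative on all 3, and the other 5 had mixed signs. Of all genes, 52.4% had 1 sign on every array, with 27.9% positive and 24.5% negative. All 11 probes were well above background in all 6 channels. In all 11 the levels of the genotypes overlapped. Over all genes, each by its brightest probe, the levels did not overlap in 25.8%, so overlap was the common case.

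**Figure D1:**
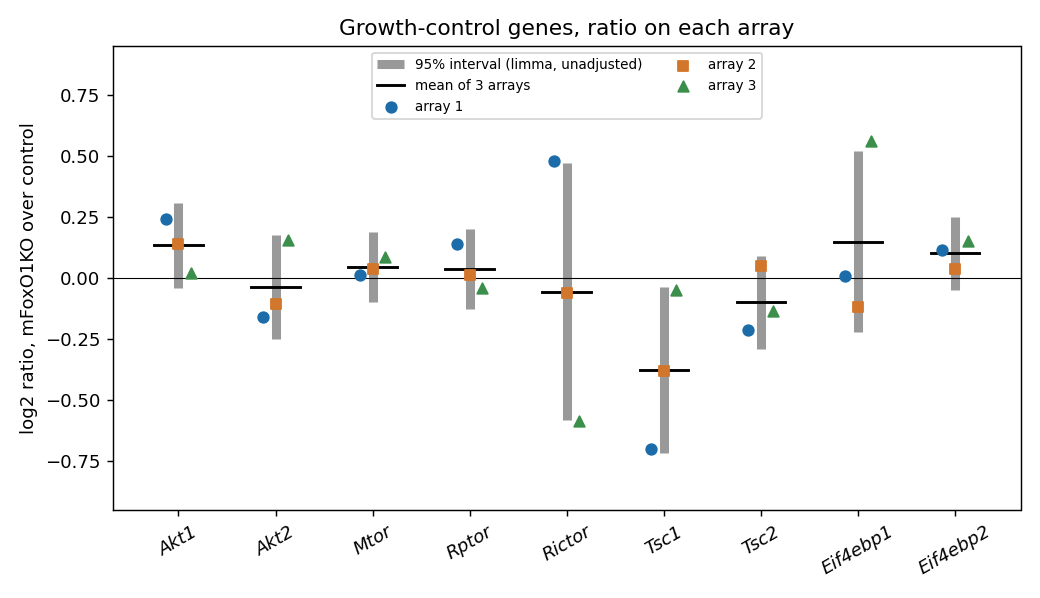
Log2 ratio of mFoxO1KO over control (y axis) for each of the 9 growth-control genes (x axis), with a symbol per array. A black line marks the mean of 3 arrays and a grey bar the 95% interval from limma, not adjusted over genes. Mtor lies between 0.01 and 0.09, Rictor spans 0.48 to -0.58, and Tsc1 is below 0 on all 3 arrays.

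The 95% intervals from limma are for single genes and are not adjusted over the genes tested. A dye effect of a probe is part of the ratio they describe, so they do not bound the effect of genotype alone. The intervals lay inside a 1.3-fold change in either direction for 6 of the 9 genes, the exceptions being Rictor, Tsc1 and Eif4ebp1. They lay inside 1.5-fold for 8, all but Tsc1. These limits hold for the main processing, since the mean log2 ratio of Tsc2 was -0.43 with the deposited log ratio. With median centring the means of Akt1, Eif4ebp1 and Eif4ebp2 were 0.36, 0.46 and 0.34. The SD of the ratio over arrays ranged from 0.04 for Mtor to 0.53 for Rictor, and 4 genes lay under the median SD of all genes, 0.113.

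Akt1 encodes the Akt isoform best known for growth and survival signalling. Its level was 11.75, 11.89 and 12.00 in mFoxO1KO muscle, against 11.51, 11.75 and 11.98 in control muscle. Sample 3 of mFoxO1KO muscle was the highest of the 6 and control sample 1 the lowest, and the groups overlapped. The paired log2 ratios were 0.24, 0.14 and 0.02, with a mean of 0.13 ± 0.11 (SD, n = 3 arrays), and a 95% interval of 0.972 to 1.24-fold (limma, adjusted p = 0.273). Akt2 encodes the isoform that carries most of the insulin signal for glucose uptake in muscle and fat, and it had 3 probes. The brightest read 13.97, 14.05 and 14.36 in mFoxO1KO muscle and 14.13, 14.16 and 14.20 in control muscle. The mFoxO1KO samples thus held both the lowest and the highest values. Its ratios were -0.16, -0.11 and 0.16, with a mean of -0.04 ± 0.17 and an interval of 0.841 to 1.13-fold (limma, adjusted p = 0.805). The other probes had mean ratios of 0.08 and 0.06 (limma over every probe, adjusted p of 0.509 and 0.594), on the other side of 0. On array 3 all 3 Akt2 probes were positive, at 0.16, 0.24 and 0.19. A direction for Akt2 is therefore not settled by its probes.

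**Figure D2:**
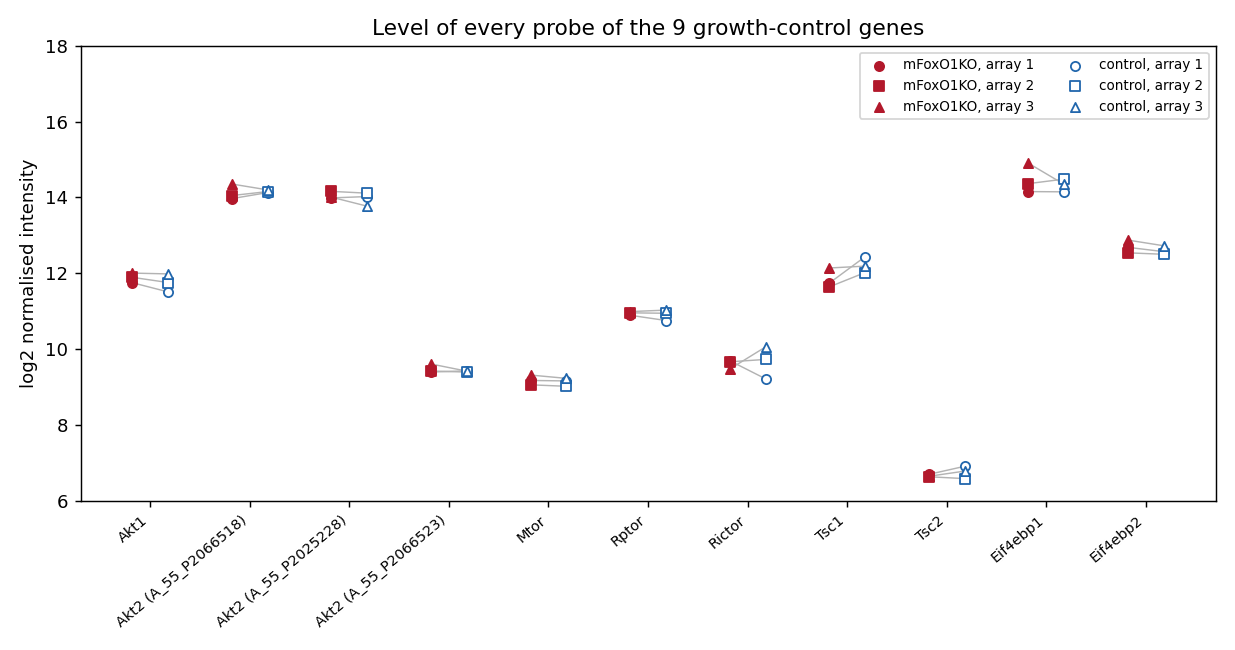
Log2 normalised intensity (y axis) of all 11 probes of the 9 growth-control genes (x axis), with mFoxO1KO samples as filled red symbols to the left of control samples as open blue symbols, and a line joining the samples of 1 array. The groups overlap in every probe, and heights of different probes are not comparable.

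Mtor, the kinase shared by both complexes, was the steadiest of the 9. It read 9.17, 9.05 and 9.31 in mFoxO1KO muscle and 9.16, 9.02 and 9.23 in control muscle. Sample for sample the values differed by 0.01, 0.04 and 0.09, with a mean of 0.05 ± 0.04 and an interval of 0.935 to 1.14-fold (limma, adjusted p = 0.629). Rptor encodes Raptor, the scaffold that brings substrates to complex 1. It read 10.89, 10.96 and 10.99 in mFoxO1KO muscle and 10.75, 10.94 and 11.03 in control muscle, so the control samples spread on both sides of the mFoxO1KO samples. The mean ratio was 0.04 ± 0.09, with an interval of 0.916 to 1.15-fold (limma, adjusted p = 0.741).

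Rictor, the subunit that defines complex 2 and whose gene FoxO factors have been reported to raise in other cells, varied most of the 9. Its level was 9.69, 9.66 and 9.47 in mFoxO1KO muscle, against 9.21, 9.73 and 10.05 in control muscle. The 3 mFoxO1KO samples lay inside the range of the control samples, which was the wider one (SD of 0.12 in mFoxO1KO and 0.42 in control). The ratios ran in opposite directions on arrays 1 and 3, at 0.48 and -0.58, with -0.06 on array 2. The mean was -0.06 ± 0.53, with an interval of 0.668 to 1.38-fold (limma, adjusted p = 0.884). The SD of Rictor over arrays was higher than that of 97.6% of genes tested. Without array 1 its mean was -0.32 and without array 3 it was 0.21, neither past the threshold.

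Tsc1 encodes hamartin, which stabilises the GTPase-activating partner tuberin, encoded by Tsc2. Tsc1 had levels of 11.74, 11.64 and 12.14 in mFoxO1KO muscle, against 12.44, 12.02 and 12.19 in control muscle. Samples 1 and 2 of mFoxO1KO muscle lay below all control samples, and sample 3 lay between the control samples. The ratio was -0.70, -0.38 and -0.05 on the 3 arrays, with a mean of -0.38 ± 0.32, or 0.771-fold with an interval of 0.609 to 0.975 (limma, adjusted p = 0.161). Its absolute mean was larger than that of 91.3% of genes tested and its SD larger than that of 92.3%. Without array 3 the mean was -0.54 (adjusted p = 0.101) and without array 1 it was -0.21 (adjusted p = 0.291), both from limma. With median centring in place of the loess dye correction it was -0.15 (limma, adjusted p = 0.628).

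The Tsc2 probe was dim. Its raw signals were 88, 80 and 84.5 in mFoxO1KO muscle over local backgrounds of 48 to 53, and 96, 85 and 89 in control muscle over 34.5 to 38. The normalised levels were 6.69, 6.63 and 6.64 in mFoxO1KO muscle and 6.90, 6.58 and 6.78 in control muscle, and they overlapped. The mean ratio was -0.10 ± 0.13, with an interval of 0.818 to 1.06-fold (limma, adjusted p = 0.423). It was -0.17 with plain background subtraction (adjusted p = 0.417), -0.39 with the deposited processed signals (adjusted p = 0.185) and -0.43 with the deposited log ratio (adjusted p = 0.144), all from limma.

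Eif4ebp1 and Eif4ebp2 encode the repressors 4E-BP1 and 4E-BP2, which block the assembly of the cap-binding complex until mTOR phosphorylates them. Eif4ebp1, the form abundant in muscle and fat, read 14.16, 14.37 and 14.90 in mFoxO1KO muscle and 14.15, 14.49 and 14.34 in control muscle. The highest value was that of mFoxO1KO sample 3, and the other mFoxO1KO samples lay within the control range. The ratios were 0.01, -0.12 and 0.56, with a mean of 0.15 ± 0.36 and an interval of 0.857 to 1.44-fold (limma, adjusted p = 0.542). Without array 3 the mean was -0.06. Eif4ebp2 read 12.68, 12.54 and 12.87 in mFoxO1KO muscle and 12.57, 12.50 and 12.72 in control muscle. Each mFoxO1KO sample stood above the control sample on its array, by 0.11, 0.04 and 0.15, while the groups overlapped. The mean ratio was 0.10 ± 0.06, with an interval of 0.967 to 1.19-fold (limma, adjusted p = 0.322). Both 4E-BP genes had their highest ratio on array 3 and their lowest on array 2, where Eif4ebp1 was at -0.12 and Eif4ebp2 at 0.04. Eif4ebp3, the third 4E-BP gene, named after its values were seen, had ratios of 0.23, -0.12 and -0.11 and a mean of -0.00 ± 0.20 (limma, adjusted p = 0.997).

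**Figure D3:**
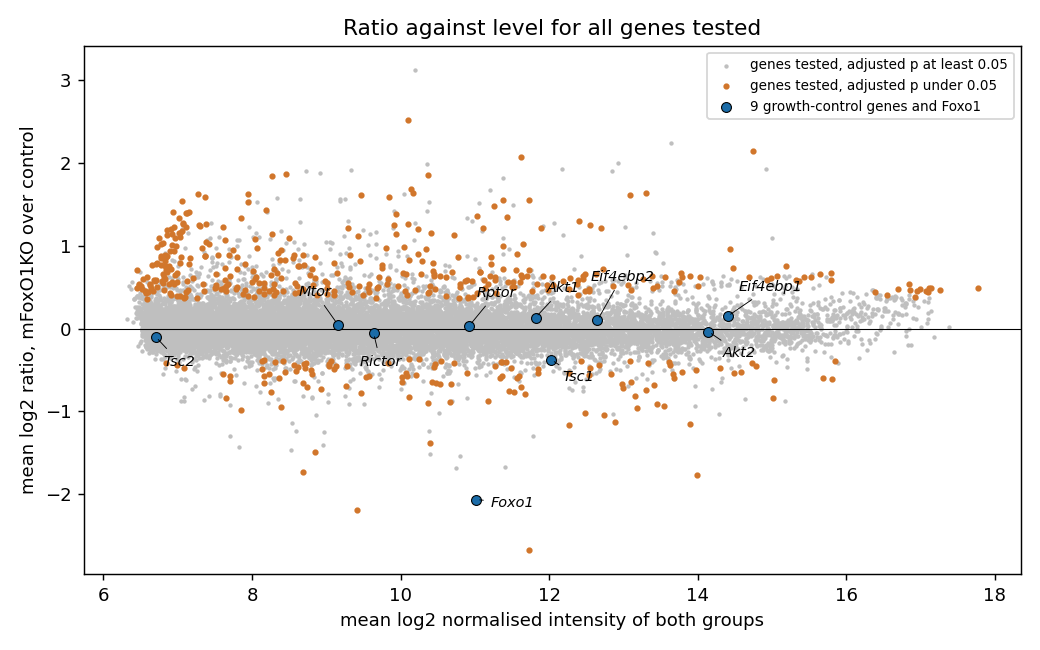
Mean log2 ratio of mFoxO1KO over control (y axis) against mean log2 normalised intensity of both groups (x axis) for 17460 genes tested, with genes past an adjusted p of 0.05 in orange and the 9 growth-control genes and Foxo1 in blue. The 9 genes lie in the grey body of the plot at means of -0.38 to 0.15, and Foxo1 lies at -2.06.

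The genes whose array pattern was nearest to that of Tsc1, the growth-control gene with the largest absolute mean ratio, were Ppm1b, Ttn and Ryr1. Likeness was the Euclidean distance between the ratios of the 3 arrays, taken over 12995 named genes. Ppm1b, a protein phosphatase gene, lay at a distance of 0.0612 with ratios of -0.66, -0.34 and -0.05. Ttn, which encodes the giant sarcomere protein titin, lay at 0.0753 with -0.70, -0.30 and -0.06. Ryr1, the calcium release channel gene of muscle, lay at 0.0993 with -0.61, -0.38 and -0.10. None passed the threshold (limma, adjusted p of 0.166 for Ppm1b, 0.175 for Ttn and 0.127 for Ryr1). The other Ppm1b probe had -0.24, -0.25 and 0.02, and the other 3 Ttn probes had means of -0.34, -0.41 and -0.11.

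Around the 9 genes, 98 further genes of the route were listed in 6 groups, and 96 of them could be tested. Of these 0 rose and 5 fell, Foxo1 among them, and 91 did not pass (limma, adjusted p over 17460 genes). With median centring in place of loess the split turned, with 5 higher and 1 lower, the lower one being Foxo1. The background shares were 2.06% of genes higher and 0.699% lower. At an unadjusted p under 0.05 there were 33, of which 17 were higher and 16 lower, where 26.8% of all genes passed, 15.3% being higher. The median ratio of the 96 was -0.007, against 0.006 for all genes tested. Of 35 listed genes with more than 1 tested probe, 13 had probes on both sides of 0.

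Of 15 PI3K and Akt input genes, 0 rose and 1 fell, with a median of 0.05. An unadjusted p under 0.05 (limma) was reached by 2 of the 15, 1 higher and 1 lower, beside 26.8% of all genes. The gene that fell was Inppl1, which encodes SHIP2, a phosphatase that removes the lipid signal Akt is recruited to. Its level was 12.53, 12.49 and 12.91 in mFoxO1KO muscle, against 13.04, 13.40 and 13.50 in control muscle. Every mFoxO1KO sample lay below every control sample. The mean ratio was -0.66 ± 0.21, or 63.1% of control (limma, adjusted p = 0.0489). This call passed in 6 of 17 alternatives, where its adjusted p ranged from 0.0220 to 0.169, and was lost without replicate 2 (0.151) or 3 (0.0816).

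Of 15 Akt and mTOR complex 2 substrates, 13 could be tested, Foxo3 and Sgk2 being the exceptions. Of the 13, 0 rose and 2 fell, with a median of -0.03. Beside Foxo1 this was Tbc1d4, which encodes AS160, the Akt substrate that holds back glucose transporter vesicles. It read 10.17, 9.97 and 10.33 in mFoxO1KO muscle, against 10.89, 10.74 and 10.79 in control muscle, with no overlap. The mean ratio was -0.65 ± 0.16 (limma, adjusted p = 0.0413), and the call passed in 9 of 17 alternatives, with an adjusted p of 0.00942 to 0.169. It was lost without replicate 1 (limma, adjusted p = 0.0582) or 2 (0.169). The other Tbc1d4 probe had a mean of -0.29 (limma over every probe, adjusted p = 0.120).

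Of 20 genes of the S6 kinase arm and cap binding, 0 rose and 1 fell, with a median of -0.003. At an unadjusted p under 0.05 there were 7 higher and 3 lower of the 20, beside 26.8% of all genes in either direction and 15.3% higher, and some of these genes had another probe on the other side of 0. The gene that fell was Rps6kb1, which encodes S6 kinase 1, the other main substrate of mTOR complex 1 beside the 4E-BPs. It read 12.50, 12.50 and 12.34 in mFoxO1KO muscle, against 12.96, 12.82 and 12.87 in control muscle, and the groups did not overlap. The mean ratio was -0.44 ± 0.11, or 73.8% of control (limma, adjusted p = 0.0493). The call passed in 5 of 17 alternatives, with an adjusted p of 0.0131 to 0.458. It was lost without replicate 1 (limma, adjusted p = 0.0798), 2 (0.165) or 3 (0.116), and the ratio was -0.29 with the mean of probes and -0.20 with median centring (limma, adjusted p = 0.458). Other Rps6kb1 probes had means of -0.32 and -0.12 (limma over every probe, adjusted p of 0.0693 and 0.323).

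Of 26 genes of amino acid sensing by mTOR complex 1, 0 rose and 1 fell, with a median of -0.01. Among the 26, 8 had an unadjusted p under 0.05 (limma), 4 higher and 4 lower, beside 26.8% of all genes. The gene that fell was Castor2, which encodes a relative of the arginine sensor CASTOR1. It read 12.89, 12.91 and 12.88 in mFoxO1KO muscle, against 13.26, 13.34 and 13.25 in control muscle. The 3 differences were close to each other, at -0.37, -0.43 and -0.36, with a mean of -0.39 ± 0.04, or 76.4% of control (limma, adjusted p = 0.0486). The call passed in 8 of 17 alternatives, with an adjusted p of 0.00983 to 0.664. It was lost without replicate 1 (limma, adjusted p = 0.0672), 2 (0.206) or 3 (0.106), and with median centring the ratio was -0.13. Sesn3, a sestrin gene known as a FoxO target and named after its values were seen, had -0.14 ± 0.16 (limma, adjusted p = 0.302).

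None of 13 mTOR complex partners and Rheb-related genes passed (limma), with a median of -0.02. At an unadjusted p under 0.05 there were 3 of the 13, beside 26.8% of all genes. The genes with the smallest p were Prr5l, which encodes a partner of mTOR complex 2, at 0.30 ± 0.12 (adjusted p = 0.0875), and Akt1s1, which encodes the complex 1 inhibitor PRAS40, at -0.23 ± 0.06 (adjusted p = 0.0980). The other Prr5l probe had 0.11. It was well above background on 3 arrays in the mFoxO1KO channel and on 0 in the control channel. None of 9 targets of mTOR complex 1 in autophagy and lysosome control passed (limma), with a median of -0.06. Of these 9, 3 had an unadjusted p under 0.05, beside the same 26.8% of all genes. Atg13, a subunit of the kinase complex that starts autophagy, had -0.31 ± 0.14 (adjusted p = 0.0919), and Tfeb, the transcription factor gene of lysosome formation, had 0.20 ± 0.09 (adjusted p = 0.138).

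**Figure D4:**
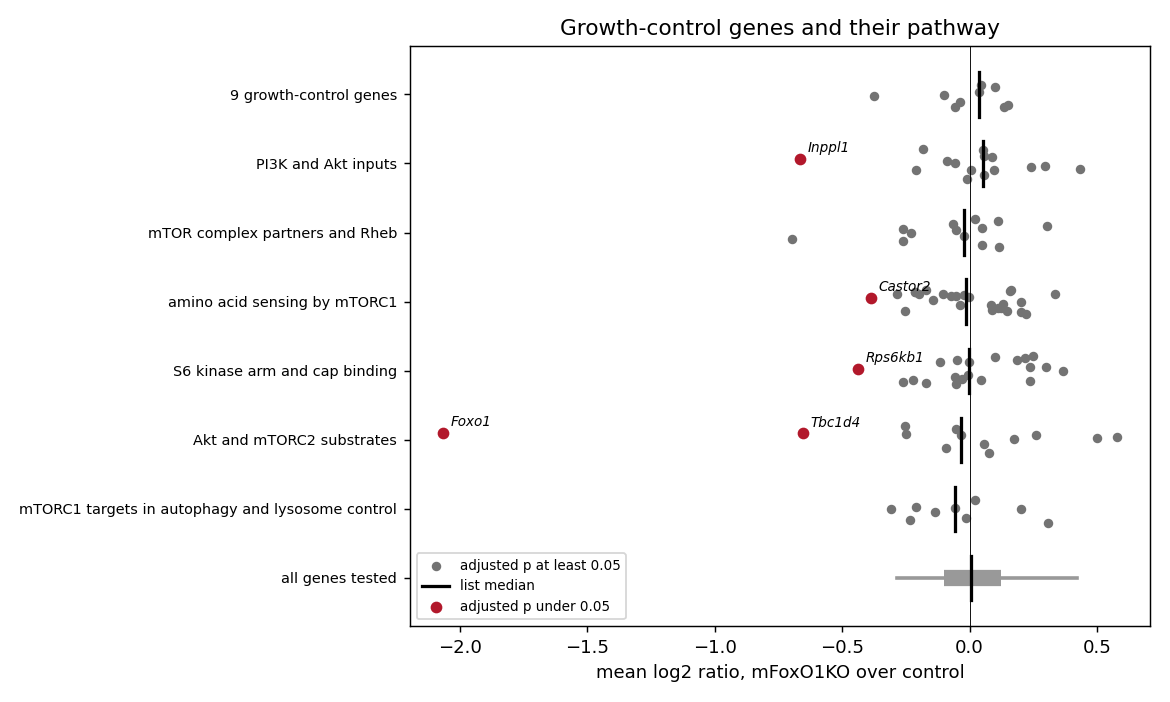
Mean log2 ratio of mFoxO1KO over control (x axis) for each gene of the 9 growth-control genes and the 6 groups around them, with a black line for each median and red for an adjusted p under 0.05. The lowest row shows all 17460 genes tested, the thick bar from the 25th to the 75th and the thin line from the 5th to the 95th percentile, and the 5 red genes all lie below 0.

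The means of the growth-control genes were set against those under 17 other ways of processing the arrays, 16 for Tsc2. The count of the 9 past the threshold was 0 in each. Akt1, Mtor, Tsc1, Tsc2 and Eif4ebp2, each with a single probe, kept their direction in all of them. Where only the filter, the use of probes or the fitted model differed, their means could not move. Those alternatives therefore say nothing of their direction. With median centring in place of loess the median of all genes moved to 0.156 and that of the 9 genes to 0.248, and 7 of the 9 were then above 0.

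**Figure D5:**
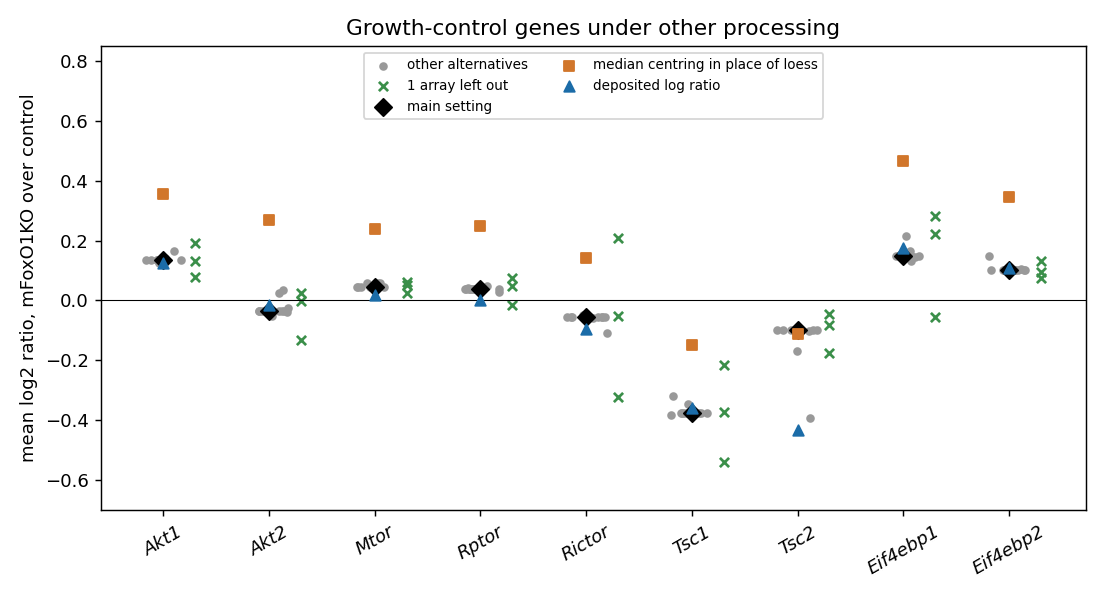
Mean log2 ratio of mFoxO1KO over control (y axis) of the 9 growth-control genes (x axis) in the main setting (diamond), with median centring (square), with the deposited log ratio (triangle), with 1 array left out (crosses) and in the other alternatives (dots). Median centring lifts 8 of the 9 genes, and leaving out an array moves Rictor between -0.32 and 0.21.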

How the data were processed

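The deposited files are Agilent Feature Extraction output, 1 per array. They hold median spot and background intensity per channel, processed intensity, and a log10 ratio of processed Cy5 over Cy3, per the file headers. Its version is 9.3.2.1 in the submitters' processing notes but 11.5.1.1 in the file headers. Median intensity values were corrected with normexp (offset 50) and loess within arrays, control spots at weight 0, in limma 3.58.1 (R 4.3.3). Flagged spots were left out and spots of a probe averaged. Probes had to be well above background in 1 and the same channel on all 3 arrays, with the brightest probe kept per gene. Accessions were named through RefSeq, which gave 27508 of 39429 probes a symbol. The log2 ratio of mFoxO1KO over control was tested against 0 (lmFit, eBayes, two-sided, Benjamini-Hochberg over 17460 genes). Pairing comes from the shared array. Levels per sample were scaled between arrays (Aquantile). An interval is the limma 95% interval of a single gene, not adjusted over genes. The fit was tested on simulated data. Members and lists were chosen with earlier results of these data known. Genes named by rule are the 9 genes, Foxo1, and in each list those past the threshold or else the 2 of smallest p. The rule also took the 3 genes nearest to the member with the largest absolute mean ratio. Eif4ebp3, Sesn3 and the genes under other observations were named outside this rule. The number of arrays limits the precision.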

Additional observations from a re-analysis of the deposited data

How the results depend on the processing

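The count of growth-control genes past the threshold was 0 in all 17 alternatives, and at an unadjusted p under 0.05 it was 0 to 3 (limma). The 3 came with median centring, where 3945 of 17460 genes tested were under that p. The count was 0 without replicate 1, without replicate 2, and with separate channels and no replicate block. In those settings 2706 to 3987 of all genes tested were under it. The gene under it was Tsc2 with the deposited processed signals and with the deposited log ratio (limma, unadjusted p of 0.0286 and 0.0241). Tsc1 was above that p in both, and also with median centring. The count of all genes past the threshold, 481 (359 higher), was 260 with plain background subtraction, 200 with the deposited log ratio, 1204 (1153 higher) with median centring, 830 with scaling between arrays, 55 when both channels had to be above background, 746 without a filter and 9 above the median intensity. Without 1 replicate the count was 49 (replicate 2) to 405 (replicate 1). With the separate channels and the array as a replicate block (correlation 0.417) it was 1649 (1040 higher), and without the replicate block 216. The 5 pathway genes past the threshold became 1 with plain subtraction, 2 with the processed signals, 1 with the deposited log ratio, 1 with both channels above background, 0 above the median intensity, 2 with the mean of probes, 6 with median centring (5 higher, against 0 higher in the main setting), 10 with the replicate block (4 higher), 3 without it, and 0 (without replicate 2) to 3 (without replicate 3) with 1 replicate left out. Of the single genes, Akt2 turned to 0.026 with the processed signals, 0.27 with median centring and 0.036 with the mean of probes, and ranged from -0.13 to 0.025 with 1 replicate left out. Rictor turned to 0.14 with median centring and ranged from -0.32 to 0.21 with 1 replicate left out, Rptor from -0.014 to 0.075 and Eif4ebp1 from -0.056 to 0.28. The cause of these changes was not tested, except that fewer genes or arrays entered some fits. Dim probes such as that of Tsc2 limit what signal over background can show.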

Other observations

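Several genes next to the growth-control genes stood out without passing the threshold, and were chosen after their values were seen. Tbc1d1, which encodes the relative of AS160, had levels of 13.50, 13.76 and 13.82 in mFoxO1KO muscle, against 12.80, 13.41 and 13.37 in control muscle. Its mean log2 ratio was 0.50 ± 0.18 (SD, n = 3 arrays; limma, adjusted p = 0.0573) and its other probe had 0.35, while that of Tbc1d4 was -0.65. Sgk1, a kinase gene activated through mTOR complex 2, read 14.69, 15.06 and 14.68 in mFoxO1KO muscle and 13.95, 14.32 and 14.43 in control muscle (0.58 ± 0.28, limma adjusted p = 0.0717). Ddit4l, a stress-induced inhibitor of mTOR complex 1, had ratios of 0.05, -0.71 and -1.43 on the 3 arrays (limma, adjusted p = 0.196). Its levels were 13.41, 12.73 and 12.00 in mFoxO1KO muscle and 13.36 to 13.44 in control muscle, so the spread lay in the mFoxO1KO samples.

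Genes of eIF4E, which the 4E-BPs bind, and of other translation factors gave different answers by probe. The brightest Eif4e probe read 11.15, 11.19 and 11.17 in mFoxO1KO muscle and 10.97, 10.88 and 10.95 in control muscle (0.24 ± 0.07, limma adjusted p = 0.0966), while the other Eif4e probe had a mean of -0.10. Eif4e2, which encodes a related cap-binding protein, had 0.25 on the brightest probe and -0.21 on the other, each of 1 sign on all 3 arrays. Of 3 Eif4b probes, 2 had 0.30 and 1 had -0.03. Eef2, the elongation factor gene, and Mknk2, an eIF4E kinase gene, had 1 probe each, at 0.24 ± 0.05 and 0.37 ± 0.21 (limma, adjusted p of 0.0894 and 0.101).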
